A study of Mus musculus with 3 samples.

Results

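Wt1, Gata4, Nr5a1, Lhx9, Emx2, Cbx2 and Six4 are 7 genes whose products are needed for the genital ridge to become a gonad, and their transcripts were followed through the cell types of mouse fetal ovarian somatic cells (FOSCs). The genes were taken as a named list and not by their values, and are 7 of 18738 genes in the count tables. Single-cell RNA sequencing (10X Genomics 3' libraries, unique molecular identifier (UMI) counts) was performed on 3 cryopreserved lots, called lots 26, 29 and 30. Each lot was prepared from CD1 ovaries at E12.5 (days of embryonic development) from 10 pregnant females, trypsinized after removal of the mesonephros, depleted with SSEA1 and CD31 magnetic antibodies, frozen and thawed. There was 1 condition and no treatment or genetic change, the embryos of a lot were pooled, and the lots are the replicates (n = 3).

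The genital ridge arises as a thickening of coelomic epithelium on the mesonephros, and its somatic cells give rise to pre-granulosa cells in the ovary and Sertoli cells in the testis. WT1 is a zinc finger factor needed for both kidney and gonad, GATA4 is a zinc finger factor needed for the first thickening of the ridge, and NR5A1 (SF1) is an orphan nuclear receptor that also drives the steroidogenic enzymes. LHX9 and EMX2 are homeodomain factors without which mouse gonads do not form. CBX2 is a chromodomain subunit of Polycomb repressive complex 1 (PRC1), and SIX4 is a homeodomain factor that acts upstream of Nr5a1 and of the GATA4 cofactor gene Zfpm2.

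The 28971 of 29103 barcodes that passed the cell filter (9711, 8553 and 10707 in lots 26, 29 and 30) had a median UMI count per lot between 8949 and 11595, lowest in lot 29. Of the barcodes, 69 occurred in more than 1 lot, with 20 shared by lots 26 and 29, 19 by lots 26 and 30 and 30 by lots 29 and 30. The median correlation of 2 cells with the same barcode was 0.649, 0.682 and 0.642 for these pairs of lots, beside 0.659, 0.671 and 0.647 for cells with different barcodes. The 20 clusters were formed with the 7 genes left out of the variable genes and were named from marker genes, so that "-like" stands for a name given by markers. The pre-granulosa-like (12827 cells), stromal-like (6325) and epithelial-like (6127) classes were large, followed by germ-like (1473), Sertoli-like (391), endothelial-like (349), macrophage-like (135) and red blood cell-like (77) cells. Germ-like cells remained after the depletion, and the paper too reports germ cells in each of these lots. Their 8 germ markers summed to 3859 to 4257 counts per 1000000 UMIs (CPM) per lot, none of them at 0. Cluster 2 of the pre-granulosa-like class drew 2828 of 3043 cells from lot 30, and Sertoli-like cells came mostly from lot 29 (285 of 391 cells, with 16 in lot 30). The paper treats the Sertoli cells of these lots as contaminants and set them aside. Clusters 3, 4 and 11 (stromal-like), 6 and 8 (epithelial-like) and 12 (pre-granulosa-like) had no marker of their own list among their 10 leading genes. Cluster 3 had 1 gene of the neural crest list among them, and cluster 12 scored 1.241 for pre-granulosa and 1.208 for Sertoli markers. Leaving out clusters 3 and 12, or cluster 2, is reported below where it changed a call. The 10 leading genes of macrophage-like cells held S100a8, S100a9, Camp, Ngp and Stfa3, known from neutrophils, beside the macrophage markers Tyrobp, Lyz2, C1qa and C1qb, so the class holds more than its name says. Its summed germ marker level was 165.4 to 256.6 CPM.

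In the GENCODE M21 annotation of GRCm38, Wt1 lies on chr2:105126529-105173616 (+), Gata4 on chr14:63198922-63271692 (-), Nr5a1 on chr2:38692656-38714542 (-), Lhx9 on chr1:138825186-138848577 (-), Emx2 on chr19:59458372-59465357 (+), Cbx2 on chr11:119022962-119031270 (+) and Six4 on chr12:73099609-73113456 (-). All are protein coding. Antisense transcripts overlap Nr5a1 (Nr5a1os, no shared exon bases) and Emx2 (Emx2os, 264 shared exon bases), and neither has a row in the count tables. The strand setting of the counting is not given in the sources used here, so a share of antisense reads in the Emx2 counts cannot be told apart. The RefSeq promoter table (GRCm38.p6) held a window of 250 bases before to 50 after the start for 3 of the 7 genes, Lhx9, Emx2 and Six4. The upstream sequences of Lhx9 and Six4 are shown because, among the named classes, Lhx9 was highest in epithelial-like cells and Six4 in germ-like cells. The Lhx9 window belongs to a start inside the annotated gene. Each runs 5′ to 3′ on the gene's strand up to the first annotated exon base, and capitals mark TAAT on either strand, the core read by many homeodomain proteins, which the Six4 stretch does not hold.
Lhx9, chr1:138842458-138842694 (-): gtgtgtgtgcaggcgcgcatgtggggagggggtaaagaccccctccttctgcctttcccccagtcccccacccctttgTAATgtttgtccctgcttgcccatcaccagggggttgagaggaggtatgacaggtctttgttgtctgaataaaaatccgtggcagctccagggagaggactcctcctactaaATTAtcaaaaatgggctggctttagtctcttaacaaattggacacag
Six4, chr12:73113457-73113675 (-): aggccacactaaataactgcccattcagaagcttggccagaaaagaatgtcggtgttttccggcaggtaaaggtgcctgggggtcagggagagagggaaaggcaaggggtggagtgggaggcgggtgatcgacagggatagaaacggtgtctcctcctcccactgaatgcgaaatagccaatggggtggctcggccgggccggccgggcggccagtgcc
Over the whole window, TAAT occurred 2 times for Lhx9, 3 times for Emx2 and 1 time in another window of Six4, and 58.0% of 32817 promoter windows hold it on either strand. Its longer palindrome TAATTA, which contains TAAT, occurred 1 time in the Emx2 window and is held by 5.30% of windows. GATAA on either strand, the letters of many GATA sites, occurred 1 time in the Lhx9 window and is held by 25.4% of windows. AGGTCA, also searched on both strands, was in none of these 4 windows and is held by 16.3% of windows. The same was so for CACGTG, held by 7.15%, while GCGTGGG, held by 5.04%, was likewise without a match.

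Wt1 was high in 3 somatic classes. In epithelial-like cells its level was 307.9, 248.8 and 337.8 CPM in lots 26, 29 and 30 (298.2 ± 45.3, SD, n = 3), in Sertoli-like cells 312.1, 222.5 and 336.1 CPM, and in pre-granulosa-like cells 294.4, 239.1 and 320.9 CPM. These 3 classes overlapped, with the lowest value of each in lot 29. Stromal-like cells were lower in each lot, at 210.6, 153.2 and 219.0 CPM. Germ-like cells were at 49.6, 19.0 and 53.0 CPM, and macrophage-like cells, which should lack the gonadal factors, at 74.3, 39.2 and 115.8 CPM.

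Gata4 differed more between classes. Sertoli-like cells held 196.5, 184.7 and 195.8 CPM (192.3 ± 6.59), above all pre-granulosa-like values of 155.6, 131.7 and 159.4 CPM. Epithelial-like cells were at 114.0, 93.4 and 121.8 CPM and stromal-like cells at 91.7, 70.9 and 94.6 CPM, which overlap across lots although each lot had the higher value in its epithelial-like cells. Germ-like cells were at 11.6 to 24.3 CPM.

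Nr5a1 followed the same order with larger steps. Its level was 140.9, 116.5 and 118.2 CPM in Sertoli-like cells and 86.0, 66.1 and 77.4 CPM in the pre-granulosa-like class. It was 52.1, 40.5 and 57.5 CPM in epithelial-like cells and 37.1, 24.8 and 33.7 CPM in stromal-like cells. These 4 classes did not overlap. The stromal-like mean of 31.9 CPM lay close to the 29.8 CPM of endothelial-like cells, which should lack the gene.

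Lhx9 was at its highest named-class level in epithelial-like cells, with 526.4, 566.6 and 591.2 CPM (561.4 ± 32.7), above the 344.5, 350.8 and 383.5 CPM of pre-granulosa-like cells. Stromal-like cells had 151.2 to 176.9 CPM. Sertoli-like cells had 59.2, 54.5 and 62.8 CPM, within the 42.8 to 158.5 CPM of macrophage-like and the 51.1 to 98.6 CPM of endothelial-like cells.

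Emx2 was also low in Sertoli-like cells, at 44.1, 44.3 and 48.0 CPM beside 21.4 to 82.6 CPM in macrophage-like and 35.7 to 44.3 CPM in endothelial-like cells. It was highest in pre-granulosa-like cells at 268.7, 282.3 and 252.8 CPM. Epithelial-like cells had 204.2, 215.9 and 205.6 CPM and stromal-like cells 97.0, 82.8 and 92.7 CPM, and no pair of these 3 classes overlapped.

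Cbx2 had low counts and another order. Epithelial-like cells had 23.9, 24.3 and 24.3 CPM and germ-like cells 25.8, 18.4 and 26.9 CPM, which overlap. Sertoli-like cells ranged from 16.8 to 36.9 CPM, the highest value resting on 10 UMIs in lot 30. Pre-granulosa-like cells had 10.9, 11.7 and 11.9 CPM, below stromal-like cells at 17.6, 13.9 and 18.0 CPM. They were also below the 12.4 to 14.5 CPM of macrophage-like cells, which rests on 4 to 14 UMIs per lot. Endothelial-like cells had 23.0, 14.2 and 20.7 CPM.

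Six4 was the only one of the 7 with its highest class level in germ-like cells, at 19.9, 20.3 and 19.6 CPM in lots 26, 29 and 30 (19.9 ± 0.366). All somatic values of the named classes were lower, with 6.92, 4.28 and 7.31 CPM in epithelial-like, 4.45, 3.65 and 4.67 CPM in stromal-like and 2.34, 2.03 and 2.63 CPM in pre-granulosa-like cells. Germ-like cells contributed 35.1% ± 10.4 of all Six4 UMIs of a lot and 9.74% ± 3.99 of all UMIs.

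**Figure D1:**
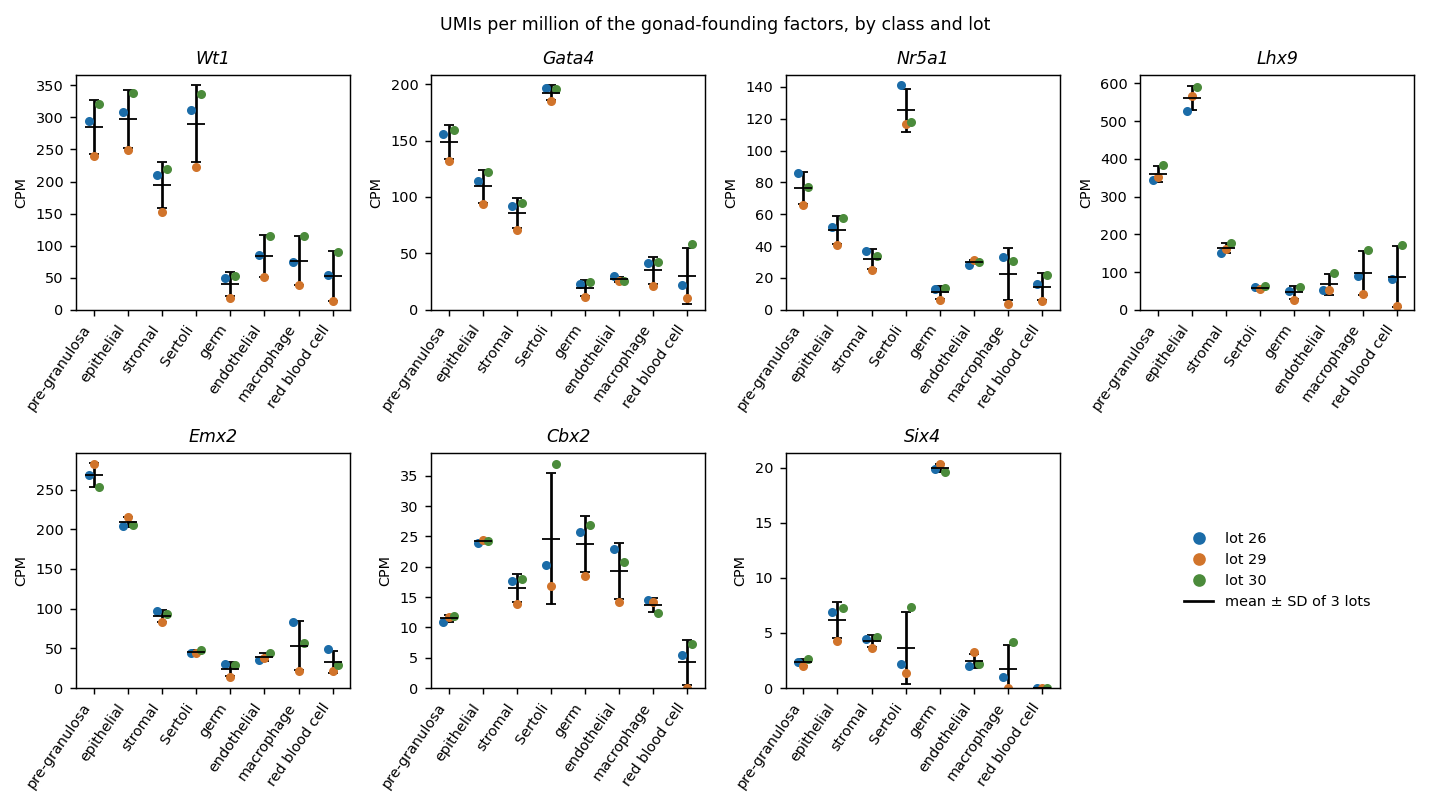
Level of each gene in counts per 1000000 UMIs (CPM, y axis, linear from 0) in the 8 named classes (x axis), with points for lots 26, 29 and 30 and a bar for the mean ± SD of 3 lots. Lhx9 peaked in epithelial-like cells (561.4 CPM), Emx2 in pre-granulosa-like cells (268.0 CPM) and Six4 in germ-like cells (19.9 CPM), whereas the Wt1 values of epithelial-like, Sertoli-like and pre-granulosa-like cells overlapped.

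The comparison of pre-granulosa-like with epithelial-like cells asked which factors differ between these classes, which are named from markers and not from their place in the ovary. Gata4 and Nr5a1 were higher in pre-granulosa-like cells and Cbx2 and Six4 were higher in epithelial-like cells, with 2 of 7 called in each direction (edgeR's quasi-likelihood test on the sums of each class and lot, Benjamini-Hochberg adjusted p under 0.05 over 13828 genes). Over all genes, 24.8% were called higher and 20.1% lower in pre-granulosa-like cells, 45.0% in all. The fitted log2 fold change was 0.49 ± 0.16 (SE) for Gata4 (adjusted p = 0.0134, edgeR) and 0.66 ± 0.17 for Nr5a1 (adjusted p = 0.00273). The log2 fold change was -1.03 ± 0.13 for Cbx2 (adjusted p = 1.75e-07) and -1.35 ± 0.19 for Six4 (adjusted p = 3.02e-06). Wt1 differed by -0.02 ± 0.25 on the log2 scale (adjusted p = 0.959). Lhx9 (log2 fold change -0.60 ± 0.26, adjusted p = 0.0626) and Emx2 (0.41 ± 0.18, adjusted p = 0.0750) did not pass. The classes of a lot come from the same pool of cells, and with the lot as a block both passed, Lhx9 at -0.60 ± 0.13 (adjusted p = 0.000227) and Emx2 at 0.41 ± 0.11 (adjusted p = 0.00230). The main fit took the spread from all 8 classes. With edgeR fitted to only the classes compared, both passed as well, and 54.8% of all genes were called. Lhx9 was then at -0.64 ± 0.09 (adjusted p = 0.000443) and Emx2 at 0.36 ± 0.09 (adjusted p = 0.00784). The call of Gata4 was lost without lot 26 (adjusted p = 0.0872) and without lot 30 (0.0615). Lhx9 and Emx2 passed without lot 29 (adjusted p = 0.0403 and 0.0367), and Lhx9 passed without cluster 2 (-0.84 ± 0.27, adjusted p = 0.0133).

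In stromal-like cells, 5 of the factors were lower than in pre-granulosa-like cells and 2 were higher. Emx2 had the largest difference in favour of pre-granulosa-like cells, a log2 fold change of 1.68 ± 0.19 (adjusted p = 2.94e-08), followed by Nr5a1 with 1.38 ± 0.18, Lhx9 with 1.26 ± 0.26, Gata4 with 0.91 ± 0.16 and Wt1 with 0.67 ± 0.25 (adjusted p = 0.0290). Cbx2 and Six4 were higher in stromal-like cells, by log2 fold changes of -0.41 ± 0.13 and -0.75 ± 0.20 for pre-granulosa-like over stromal-like cells (adjusted p = 0.00974 and 0.00320). Of all genes, 25.9% were called higher and 22.9% lower in pre-granulosa-like cells, 48.7% in all. The call of Wt1 was lost with relative log expression size factors (adjusted p = 0.0597) and with DESeq2 (0.113), and without lot 26 (0.134) or lot 30 (0.0948). That of Cbx2 was lost without lot 26 (adjusted p = 0.222) or lot 30 (0.148), and that of Six4 without lot 26 (0.0627). With the lot as a block none of these calls was lost, and 64.9% of all genes were called.

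All 7 factors were higher in epithelial-like than in stromal-like cells, where 14.0% of all genes were called higher and 16.4% lower, 30.5% in all. Lhx9 had a log2 fold change of 1.85 ± 0.27 (adjusted p = 3.21e-06) and Emx2 one of 1.27 ± 0.19 (adjusted p = 4.62e-06). The other fold changes were smaller, 0.72 ± 0.18 for Nr5a1, 0.69 ± 0.25 for Wt1 (adjusted p = 0.0378), 0.62 ± 0.13 for Cbx2, 0.60 ± 0.19 for Six4 (adjusted p = 0.0188) and 0.43 ± 0.16 for Gata4 (adjusted p = 0.0414). Wt1 and Gata4 did not pass with relative log expression size factors (adjusted p = 0.0756 and 0.0915) or DESeq2 (0.131 and 0.116), and Six4 did not pass without clusters 3 and 12 (0.0727). Leaving out lot 26 left 4 of the 7 called, with Wt1, Gata4 and Six4 not passing (adjusted p = 0.201, 0.195 and 0.185). Leaving out lot 30 left 3, with Nr5a1 also not passing (0.116), beside 0.157, 0.227 and 0.198 for Wt1, Gata4 and Six4, while the block on lot kept all 7 and called 50.3% of all genes.

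Sertoli-like cells, the male counterpart of pre-granulosa cells, differed from them most, among the 7 factors, in Lhx9 and Emx2. Lhx9 was lower by a log2 fold change of -2.79 ± 0.31 (adjusted p = 5.00e-08) and Emx2 by -2.72 ± 0.23 (adjusted p = 3.09e-10). With called doublets removed, Lhx9 was at -3.96 ± 0.33. Nr5a1 and Cbx2 were higher, with 0.57 ± 0.19 (adjusted p = 0.0198) and 0.65 ± 0.19 (adjusted p = 0.00717). Thus 2 of 7 were called in each direction, beside 15.4% of all genes higher and 22.5% lower (37.9% in all), and a median log2 fold change of -0.15 over all genes. DESeq2 split the calls over all genes differently, 2792 higher and 2713 lower against 2129 and 3110. Wt1 (-0.19 ± 0.26), Gata4 (0.21 ± 0.17) and Six4 (-0.37 ± 0.47) did not pass, and Gata4 passed with the lot as a block (0.28 ± 0.10, adjusted p = 0.0270). It also passed with edgeR fitted to only the classes compared (0.34 ± 0.12, adjusted p = 0.0448). Nr5a1 and Cbx2 did not pass without lot 26 (adjusted p = 0.0841 and 0.0723) or without lot 30 (0.0721 and 0.0529).

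Germ-like cells set against the mean of the 3 large somatic classes were lower in 5 factors and higher in Cbx2 and Six4, in a comparison in which 76.7% of all genes were called, 36.5% higher and 40.3% lower. The log2 fold change was 2.29 ± 0.14 for Six4 (adjusted p = 5.61e-13) and 0.48 ± 0.11 for Cbx2 (adjusted p = 0.000213). For the other 5 it lay between -2.85 ± 0.26 (Lhx9) and -2.19 ± 0.18 (Nr5a1). When doublets called by Scrublet were removed, the germ-like mean went from 40.5 to 18.9 CPM for Wt1, from 19.6 to 11.3 CPM for Gata4, from 10.8 to 5.35 CPM for Nr5a1, from 45.8 to 22.4 CPM for Lhx9 and from 24.5 to 11.6 CPM for Emx2. The log2 fold changes of these 5 then lay between -3.73 ± 0.26 (Lhx9) and -2.98 ± 0.20 (Nr5a1). In contrast, Six4 went from 19.9 to 21.8 CPM and Cbx2 from 23.7 to 24.4 CPM.

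**Figure D2:**
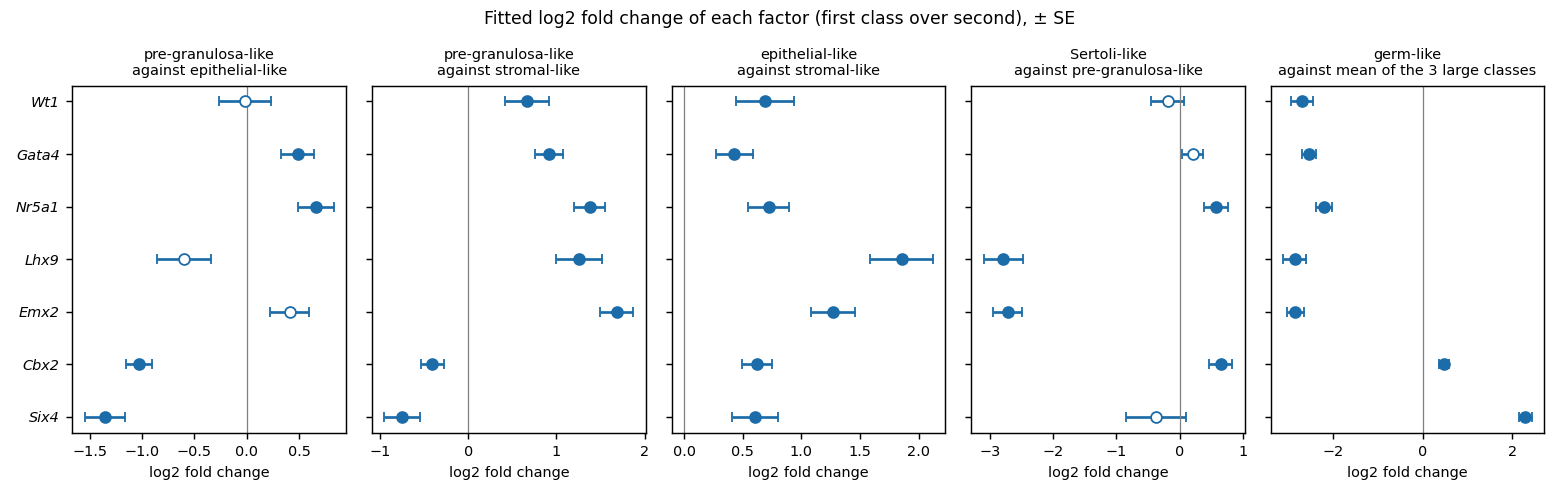
Fitted log2 fold change ± SE (x axis) of each of the 7 genes (y axis) in 5 comparisons of classes, from edgeR on the sums of each class and lot over 3 lots; filled points passed an adjusted p of 0.05 and open points did not. All 7 points lie right of 0 for epithelial-like over stromal-like cells, and Lhx9 (-2.79) and Emx2 (-2.72) lie far left of 0 for Sertoli-like over pre-granulosa-like cells.

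Class means hid differences between clusters, which are given as values with no test. Within the pre-granulosa-like class, Lhx9 was at 431.3 to 455.3 CPM in cluster 0 and 467.2 to 525.2 CPM in cluster 2, but at 156.9 to 222.9 CPM in cluster 1, led by Spink4 and Fst, the gene of follistatin. In cluster 12, led by Lypd1 and Pax8, it was at 52.1 to 90.1 CPM, a range that overlaps the 54.5 to 62.8 CPM of Sertoli-like cells. Emx2 did not follow, with 226.5 to 252.9 CPM in cluster 0, 318.5 to 343.3 CPM in cluster 1 and 242.0 to 285.5 CPM in cluster 12. Nr5a1 in cluster 12 was at 33.7 to 54.2 CPM, below its own lot's value in clusters 0, 1 and 2 in each lot.

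Stromal-like clusters differed as well. Cluster 10, led by Lum and Ntrk2, had Wt1 at 210.4 to 235.2 CPM, in the range of the other stromal-like cells, while Gata4 was at 24.1 CPM on average, Nr5a1 at 4.21 to 11.5 CPM and Lhx9 at 33.1 to 43.7 CPM, none above the range of macrophage-like cells. In cluster 3 Gata4 was at 100.8 to 114.0 CPM and Lhx9 at 175.1 to 224.2 CPM. Cluster 11, led by Foxd1 and Dkk2, had Emx2 at 94.9 to 158.9 CPM and Lhx9 at 163.7 to 262.1 CPM, with the lowest value of both in lot 29.

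Epithelial-like clusters differed in Nr5a1 and Cbx2. Cluster 9, led by Krt19, a keratin of simple epithelia, had Nr5a1 at 22.3 to 28.0 CPM against 52.3 to 67.3 CPM in cluster 5, led by 1700026D08Rik and Tm4sf5, and had Cbx2 at 28.9 to 31.6 CPM against 19.4 to 21.1 CPM. Clusters 6 and 8 were led by histone and mitosis genes, and 7 division genes chosen after values were seen summed to 2501 and 3309 CPM in them against 77.5 CPM in cluster 5 and 183.1 CPM in cluster 9. Their Cbx2 means were 26.4 and 21.7 CPM, between the 20.2 CPM of cluster 5 and the 30.5 CPM of cluster 9. Among stromal-like clusters, Cbx2 was highest in cluster 4, at 19.55 CPM, where the division genes summed to 3266 CPM. It was at 14.1, 15.3 and 14.8 CPM in clusters 3, 10 and 11. Whether division has a part in the Cbx2 level was not tested.

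The 3 clusters without a name stood apart. Cluster 14, led by Insl3 and Cyp17a1, the genes of a Leydig cell hormone and a steroidogenic enzyme, had Gata4 at 93.1 to 113.1 CPM, Nr5a1 at 66.4 to 101.5 CPM and Lhx9 at 148.5 to 256.8 CPM, while Wt1 (58.1 to 67.2 CPM) and Emx2 (42.8 to 53.9 CPM) were within the range of macrophage-like cells. Cluster 14 drew 131, 265 and 33 cells from lots 26, 29 and 30, with most in lot 29 as for Sertoli-like cells. In 141 cells with at least 3 of 6 steroidogenic genes, Nr5a1 was at 132.0 ± 28.8 CPM against 53.5 ± 6.43 CPM in the others. Cluster 18, led by the chromaffin genes Chgb and Chga with mesonephric markers beside them, was low in Gata4 (12.4 to 22.4 CPM) and had Emx2 at 104.0 to 181.9 CPM. With 30 principal components, 79 mesonephric tubule-like cells were named, with Emx2 at 177.2 to 268.3 CPM and Six4 at 9.59 to 27.2 CPM, the latter on 6 or 7 UMIs per lot. Cluster 13, a cluster of 709 shallow barcodes led by Ryr2 and Lars2, had a higher mean than any class or other cluster for 5 of the 7 factors, with Wt1 at 1128 CPM, Lhx9 at 726.9 CPM, Emx2 at 380.3 CPM, Gata4 at 222.6 CPM and Cbx2 at 32.1 CPM. High levels there were not particular to the factors. Adgrl3 was at 853.8 CPM against 191.2 CPM in pre-granulosa-like cells, its highest named class, and Celf1 at 319.4 against 106.4 CPM in germ-like cells. Among the other genes named below as most like a factor, Eml5, Hist3h2ba, Hn1l, Kctd14, Myl9, Spa17, Trim62 and Wnt6 were not highest there. The source of these levels was not tested.

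**Figure D3:**
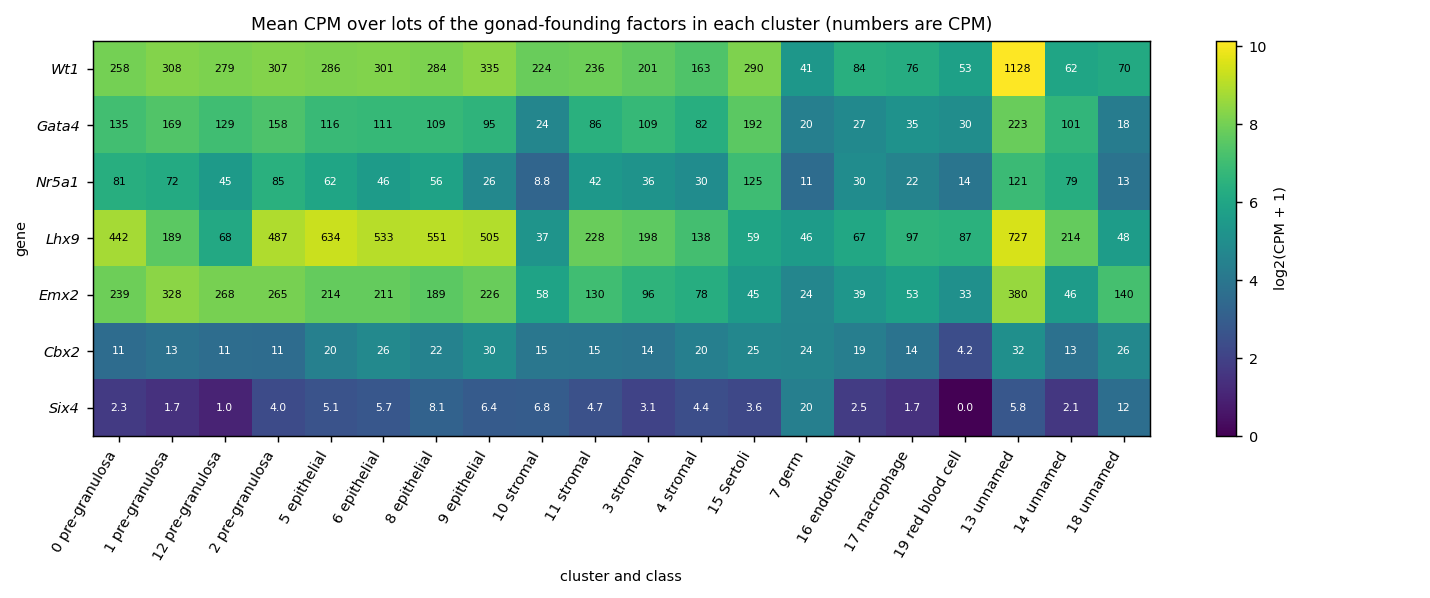
Mean CPM over 3 lots, printed in each cell and coloured as log2(CPM + 1), of the 7 genes (rows) in 20 clusters (columns, number and class). Lhx9 was at 442.5 and 486.6 CPM in clusters 0 and 2 but 68.4 CPM in cluster 12, and Gata4 was at 24.1 CPM in cluster 10.

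The share of cells with a UMI was compared after thinning each cell to 4000 UMIs, which left out 835 of 28971 cells, 556 of them in cluster 13. UMIs of the factors also occurred in cells that should lack them, and where these came from was not tested. Macrophage-like cells (median 10324 to 10872 UMIs per lot before thinning) and endothelial-like cells (14132 to 15724) show that level, beside medians of 8196 to 11048 in pre-granulosa-like and 11005 to 14479 in epithelial-like cells. Cbx2, the gene of a PRC1 subunit, is not taken to be absent from macrophage-like or endothelial-like cells. Wt1 was seen in 67.1% ± 4.97 of epithelial-like, 65.7% ± 5.41 of pre-granulosa-like, 69.8% ± 11.8 of Sertoli-like and 49.6% ± 4.93 of stromal-like cells, against 19.1% ± 3.74 of macrophage-like and 21.2% ± 6.22 of endothelial-like cells. Before thinning these Wt1 shares were 94.6%, 89.4%, 93.3% and 74.3% of the 4 gonadal classes and 31.5% of macrophage-like cells.

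Lhx9 was seen in 83.4% ± 1.24 of thinned epithelial-like and 62.6% ± 2.95 of pre-granulosa-like cells. In Sertoli-like cells its mean share of 9.14% ± 1.74 was below the 15.6% ± 3.89 of macrophage-like and the 13.5% ± 4.33 of endothelial-like cells. Over the lots, the Sertoli-like share of 7.14% to 10.28% overlapped the 9.2% to 17.86% of endothelial-like cells. It lay below the 11.11% to 17.91% of macrophage-like cells. These ranges rest on few cells, with 16 Sertoli-like cells in lot 30 and 21 macrophage-like cells in lot 29. The source of the Lhx9 UMIs in Sertoli-like cells was not tested. Emx2 was seen in 63.0% ± 2.42 of pre-granulosa-like, 55.4% ± 1.61 of epithelial-like and 15.7% ± 1.87 of Sertoli-like cells, the last within the spread of macrophage-like cells (11.2% ± 6.73) but, at 14.3% or more in each lot, above the 8.09% to 13.1% of endothelial-like cells. Gata4 reached 50.9% ± 1.19 of Sertoli-like, 43.9% ± 3.41 of pre-granulosa-like, 34.3% ± 3.00 of epithelial-like and 25.5% ± 2.75 of stromal-like cells, beside 11.4% ± 0.479 of macrophage-like cells. Nr5a1 reached 38.3% ± 10.9, 25.6% ± 2.53, 16.8% ± 2.51 and 10.4% ± 2.49 of the same 4 classes, the stromal-like share within the spread of endothelial-like cells (8.32% ± 3.75). Cbx2 was seen in 9.10% ± 0.704 of epithelial-like and 4.76% ± 0.139 of pre-granulosa-like cells. Its share was 4.83% ± 0.632 in macrophage-like and 6.59% ± 2.36 in endothelial-like cells. Six4 was seen in 6.74% ± 0.184 of germ-like cells and in 2.57% ± 0.510 of epithelial-like cells, the latter within the spread of endothelial-like cells (2.12% ± 1.18). In CPM, the Six4 level of epithelial-like cells was above that of endothelial-like cells (2.00, 3.23 and 2.14 CPM) in each lot.

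**Figure D4:**
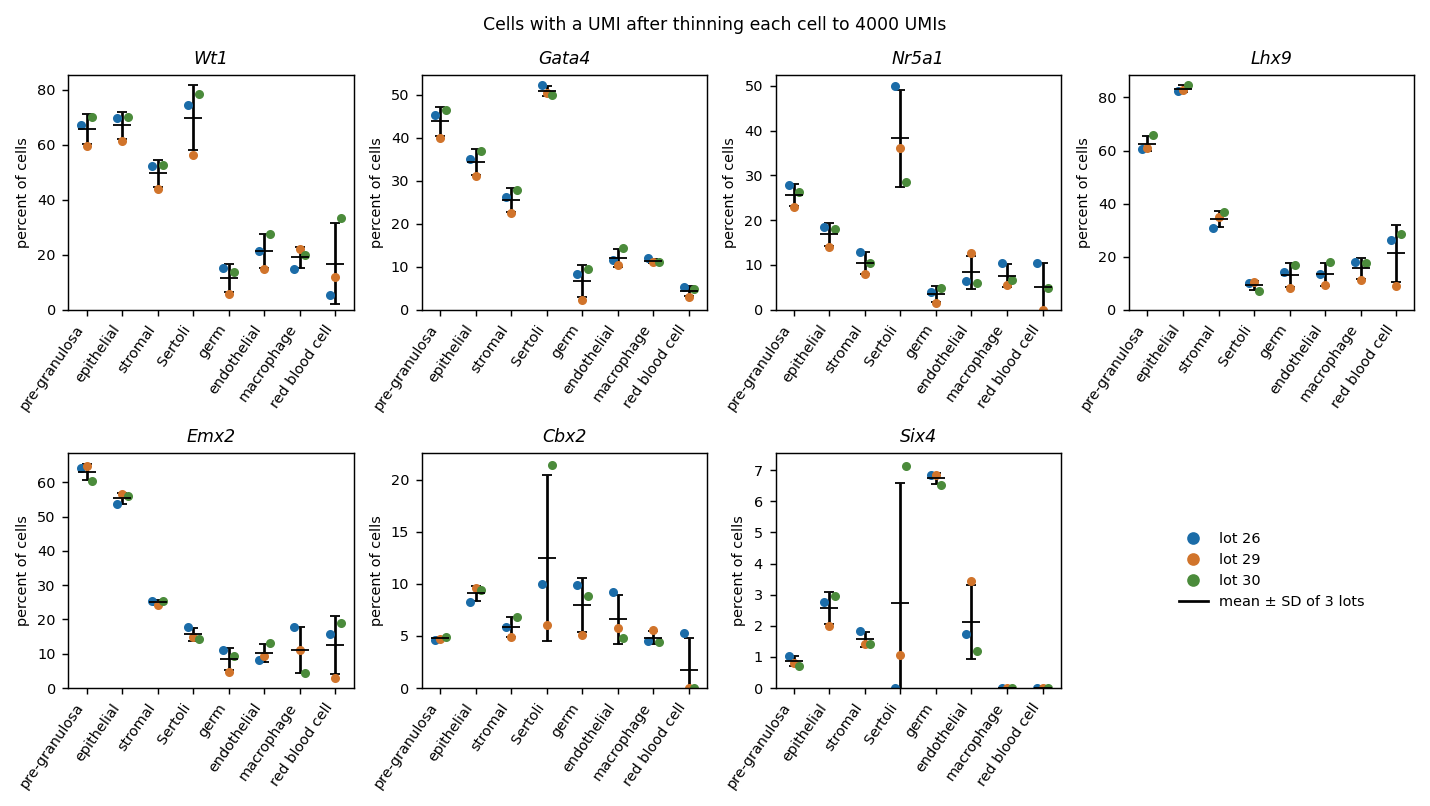
Percent of cells with at least 1 UMI of each gene after thinning to 4000 UMIs per cell (y axis, from 0) in the 8 classes (x axis), with points for the lots and the mean ± SD of 3 lots. Lhx9 reached 83.4% of epithelial-like cells and 9.14% of Sertoli-like cells. The endothelial-like and macrophage-like columns show the level in cells that should lack the factors other than Cbx2.

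Several factors were seen in single cells. At 4000 UMIs, pre-granulosa-like cells held a UMI of 2.67 ± 0.110 of the 7 factors and epithelial-like cells of 2.69 ± 0.103, against 1.99 ± 0.209 in Sertoli-like, 1.52 ± 0.112 in stromal-like, 0.739 ± 0.0970 in endothelial-like, 0.696 ± 0.0705 in macrophage-like and 0.579 ± 0.205 in germ-like cells. At least 3 factors were seen in 56.1% ± 4.19 of pre-granulosa-like, 57.4% ± 3.73 of epithelial-like, 31.9% ± 5.55 of Sertoli-like and 20.3% ± 2.44 of stromal-like cells. Lhx9 was seen more often in cells with an Nr5a1 UMI than in cells without one in each lot of the 3 large classes. In stromal-like cells the shares with Lhx9 were 44.3%, 50.4% and 54.2% (lots 26, 29 and 30) against 28.97%, 33.4% and 34.7%, in pre-granulosa-like cells 63.3%, 66.6% and 70.4% against 59.8%, 59.4% and 64.4%, and in epithelial-like cells 85.7%, 87.8% and 86.7% against 81.6%, 82.2% and 84.3%. With called doublets removed, the stromal-like means were 45.4% ± 5.33 and 29.9% ± 3.84. Endothelial-like cells, which should lack both genes, had 36.4%, 9.09% and 40.0% against 11.7%, 9.21% and 16.5%. A difference of this kind thus occurred there in lots 26 and 30 but not in lot 29. With an Nr5a1 UMI in 8.32% ± 3.75 of the 344 thinned endothelial-like cells, these shares rest on few cells. The stromal-like share of cells with Nr5a1 lay within the spread of that class, and the stromal-like clusters differed in both genes, cluster 10 being low in each; the part of either in the result was not tested. For Emx2 in cells with and without Lhx9, the shares were 35.0% ± 0.700 and 19.7% ± 1.58 in stromal-like, 56.5% ± 1.90 and 49.6% ± 2.01 in epithelial-like, 62.6% ± 2.54 and 63.7% ± 2.35 in pre-granulosa-like and 21.8% ± 8.02 and 8.11% ± 2.49 in endothelial-like cells. Of 20 ordered pairs of 5 factors per class, these were chosen after values were seen.

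**Figure D5:**
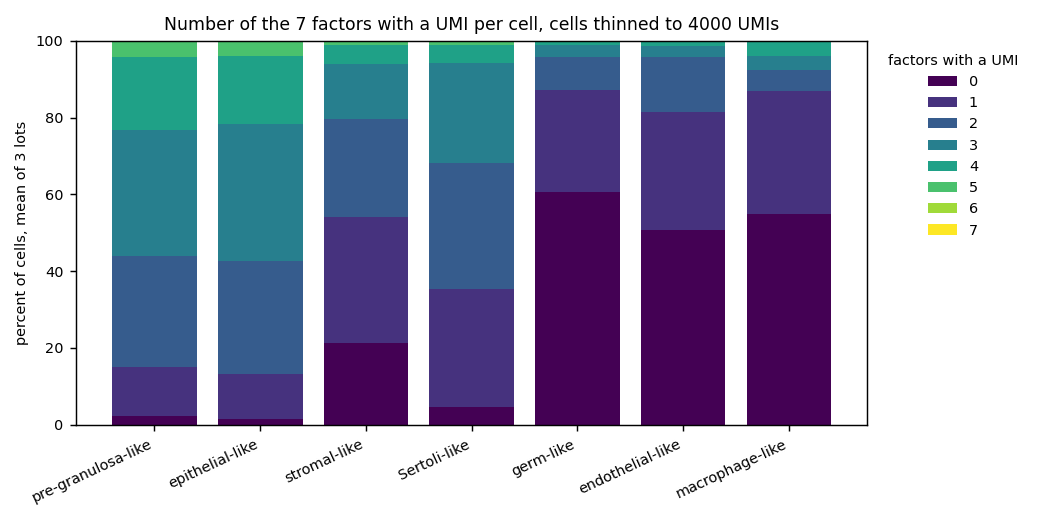
Percent of cells (y axis, mean of 3 lots, stacked to 100) by the number of the 7 factors with a UMI (colour, 0 to 7) after thinning to 4000 UMIs, in 7 classes (x axis). At least 3 factors were seen in 56.1% of pre-granulosa-like and 57.4% of epithelial-like cells, and none in 60.7% of germ-like cells.

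Across the 24 sums of 8 classes and 3 lots, which share libraries within a lot and cell types across lots, the log2(CPM + 1) levels of Wt1 and Gata4 were the most alike pair (Pearson r = 0.952), followed by Gata4 and Nr5a1 (0.907) and by Lhx9 and Emx2 (0.900). Cbx2 and Six4 were most like each other among the 7 (0.643), and the r of Six4 with the other 5 lay between 0.0489 and 0.121. Among 9058 other genes at 20 CPM or more in a class (9059 for Six4), those most like each factor were Tns3, Smarca1 and Gata6 for Wt1 (0.967, 0.966 and 0.954), Smarca1 and Wt1 for Gata4 (0.965 and 0.952), Wnt6, Trim62 and Cpe for Nr5a1 (Wnt6 is one of the pre-granulosa markers; 0.936, 0.932 and 0.925), and Gabra4, Hist3h2ba and Dcaf12l1 for Lhx9 (0.945, 0.944 and 0.939). Adgrl3, Olfm1 and Myl9 were nearest to Emx2 (0.914, 0.907 and 0.903), Celf1, Zfp568 and Hn1l to Cbx2 (0.955, 0.953 and 0.953), and Alkbh5, Spa17 and Eml5 to Six4 (0.923, 0.910 and 0.910). The third gene for Gata4 was Kctd14 (0.949). The sums include red blood cell-like cells, whose own markers, mostly hemoglobin genes, summed to 7.21e+05 CPM on average. Celf1 was at 17.2 CPM there against means of 72.5 to 106.4 CPM in the other classes, and Zfp568 at 5.43 CPM against 19.8 to 30.6 CPM. Cbx2 was at 4.22 CPM there, and Six4 had no UMI. The part of this class in the r values was not tested.

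Of 11 partners and cofactors, 9 were tested. Nr0b1 (DAX1), a repressor of NR5A1, was at 38.6, 49.4 and 42.5 CPM in pre-granulosa-like cells, against 10.4 to 12.8 CPM in the epithelial-like class (log2 fold change 1.96 ± 0.14). Cited2, a coactivator that acts with WT1 on Nr5a1, was at 513.1, 706.3 and 860.2 CPM in pre-granulosa-like and 175.1, 224.2 and 308.3 CPM in epithelial-like cells (1.60 ± 0.33). Zfpm2 (FOG2), the GATA4 cofactor, was at 57.1 to 71.4 CPM in stromal-like cells against 26.8 to 28.3 CPM in the epithelial-like class, a difference of -1.16 ± 0.15 on the log2 scale for epithelial-like over stromal-like. Lmo4, which binds the LIM cofactor LDB1, was at 137.3, 133.0 and 151.4 CPM in Sertoli-like cells, above its 20.4 to 24.4 CPM in the pre-granulosa-like class, a log2 fold change of 2.49 ± 0.19 (adjusted p = 2.69e-11). The counts called were 2 higher and 1 lower for pre-granulosa-like over epithelial-like, 3 and 3 over stromal-like, 0 and 3 for epithelial-like over stromal-like, 3 and 2 for Sertoli-like over pre-granulosa-like and 3 and 5 for germ-like cells. Of all genes, 45.0%, 48.7%, 30.5%, 37.9% and 76.7% were called in these 5 comparisons in turn, and nothing particular to the partners is read from their counts or from those of the lists that follow.

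Of 5 paralogs, 4 were tested. Lhx2, the relative of Lhx9, was at 9.98 to 13.0 CPM in germ-like and 2.53 to 2.85 CPM in epithelial-like cells, with a germ-like log2 fold change of 3.66 ± 0.17, and Nr5a2 (LRH-1) had 3.20 ± 0.21. Gata6 was lower in germ-like cells (-2.90 ± 0.22) and, unlike Gata4, lower in Sertoli-like than in pre-granulosa-like cells (-1.24 ± 0.24, adjusted p = 0.000158). The paralogs called higher and lower were 1 and 1 for pre-granulosa-like over epithelial-like cells, 1 and 1 over stromal-like cells, 2 and 0 for epithelial-like over stromal-like, 0 and 2 for Sertoli-like and 2 and 2 for germ-like cells, beside the same shares of all genes (45.0%, 48.7%, 30.5%, 37.9% and 76.7%).

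All 11 other PRC1 subunits were tested. In germ-like cells 5 were higher and 4 lower, beside 36.5% and 40.3% of all genes. Cbx7, which competes with CBX2 for the same place in the complex, was at 10.8 to 11.3 CPM in germ-like cells (log2 fold change 2.88 ± 0.19) and, opposite to Cbx2, was higher in pre-granulosa-like than in epithelial-like cells (1.13 ± 0.26, adjusted p = 0.00103). Bmi1 followed Cbx2 in being lower in pre-granulosa-like than in epithelial-like cells (-0.97 ± 0.14). In the other comparisons 1 and 2 subunits were called higher and lower for pre-granulosa-like over epithelial-like cells, 3 and 3 over stromal-like cells, 1 and 0 for epithelial-like over stromal-like cells and 0 and 6 for Sertoli-like cells, where 45.0%, 48.7%, 30.5% and 37.9% of all genes were called.

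Among 7 other genes of gonad formation, 6 were tested. Osr1, needed for the intermediate mesoderm, was at 21.9 to 24.0 CPM in stromal-like and 6.64 to 10.5 CPM in epithelial-like cells (log2 fold change for epithelial-like over stromal-like -1.32 ± 0.25). Gadd45g, upstream of Sry, was higher in pre-granulosa-like than in epithelial-like cells (1.55 ± 0.37, adjusted p = 0.00110). The called genes of this list were 1 higher and 2 lower for pre-granulosa-like over epithelial-like cells, 1 and 3 over stromal-like cells, 0 and 4 for epithelial-like over stromal-like cells, 0 and 1 for Sertoli-like and 1 and 5 for germ-like cells, beside 45.0%, 48.7%, 30.5%, 37.9% and 76.7% of all genes. The lists' median log2 fold changes, beside 0.00 for all genes in the comparison of epithelial-like with stromal-like cells, were -0.09 for partners, 0.20 for paralogs, 0.03 for PRC1 subunits and -0.51 for other genes, and 0.69 for the 7 factors. For pre-granulosa-like cells the factors' median was -0.02 over epithelial-like (all genes 0.04) and 0.91 over stromal-like cells (all genes 0.03). It was -0.19 for Sertoli-like over pre-granulosa-like cells (all genes -0.15) and -2.53 for germ-like cells (all genes -0.07).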

How the data were processed

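Single-cell libraries (10X Genomics 3' v3 kit) of 3 lots of E12.5 FOSCs were analysed, with total UMI counts between 87494974 and 141920060 per lot. The deposited tables hold whole-number UMI counts per gene and cell, not normalized. Per the labels, the authors' processing used UMI-tools, STAR 2.7, featureCounts 2.0.1 (Subread) and Seurat on GRCm38; the annotation and strand setting are not given in the sources used here. Barcodes with 200 to 9000 genes and at most 10% mitochondrial UMIs were kept. Lots were merged and clustered in Seurat 5.3.0 (2000 variable genes, 50 principal components, resolution 0.8) with the 7 factors and 34 related genes held out, of which 6 would have been variable. Clusters were named from 11 marker lists (mean log2 deviation of at least 1, a lead of 0.25 over any other qualifying list, 3 markers raised by 0.5 and 2 markers in 60% of cells), and 3 stayed unnamed. Called doublets (676, 339 and 796 cells, Scrublet in scanpy 1.11.5) were kept in the main values.

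UMIs were summed per class and lot, and CPM are counts per 1000000 UMIs of that sum. The 24 sums of the 8 classes with at least 10 cells in each lot were compared by the quasi-likelihood F-test of edgeR 4.0.16 after filterByExpr and TMM scaling (Benjamini-Hochberg over all genes, threshold 0.05), with no term for lot. DESeq2 1.42.0 and other alternatives are described with their effects. In 2-fold simulated data for pre-granulosa-like against epithelial-like cells, 99.5% of 200 changed genes were recovered among 13837 tested. The simulated counts had a fixed spread and no lot effect, and only genes above a minimum level were changed. The recovered share therefore does not give the power for smaller changes, for low counts such as those of Six4, or for genes that vary more between lots. The classes of a lot come from 1 pool of cells, and deviations from the class means had a median Pearson r of 0.14 between sums of the same lot (84 pairs) and of -0.0648 between sums of other lots (168 pairs). Nothing says that lots were sequenced separately. The p-values measure the spread between 3 lots, estimated for each gene over all 8 classes and not only over those compared. A comparison of steroidogenic-like cells was planned and could not be made, since no cluster took that name. Cells were thinned to 4000 UMIs for shares. The names followed a rule: the 7 factors, the related lists, the 3 genes most like each factor, and markers. The factors, lists and tests were chosen with earlier results of these data known. Positions are from GENCODE M21 and promoter windows from RefSeq (GRCm38.p6). Some genes of these lists are counted but not reported here by name.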

Additional observations from a re-analysis of the deposited data

Results flagged for a closer look

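The 132 barcodes that the cell filter left out took no part in any comparison, yet held UMIs of all 7 factors, which is why they are listed here. They contained 394 UMIs of Wt1, 297 of Lhx9, 160 of Emx2, 101 of Gata4, 54 of Nr5a1, 28 of Cbx2 and 17 of Six4, beside 88406 Wt1 and 40016 Gata4 UMIs in the kept cells. With 3 lots, single lots standing apart from the others were not tested.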

How the results depend on the processing

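Of 560 refitted fold changes of the 7 factors (35 comparisons of a factor, 16 alternatives each), 514 kept their direction and their side of the threshold, 25 lost a call and 15 gained one, and 20 of the 35 kept both in all 16. In 6 refits a change that passed no test turned its direction. The log2 fold change of Wt1, pre-granulosa-like against epithelial-like (-0.02), was at 0.0075 with resolution 1.2, 0.0055 with the held-out genes put back, 0.023 with doublets removed, and, leaving out 1 lot in turn, between -0.056 (lot 29) and 0.0087 (lot 26), with 0.0076 without lot 30. That of Six4, Sertoli-like against pre-granulosa-like (-0.37), ranged from -0.49 without lot 30 to 0.18 without lot 29. The cause of a lost call was not tested beyond the fewer lots in a refit. Leaving out 1 lot in turn, the number of factors called higher ranged from 1 to 3 for pre-granulosa-like over epithelial-like cells, from 3 to 7 for epithelial-like over stromal-like and from 0 to 2 for Sertoli-like over pre-granulosa-like, and the number called lower from 0 to 2 for pre-granulosa-like over stromal-like. The lowest counts came without lot 26 or lot 30. With the lot as a replicate block, 3 calls were gained (Lhx9, -0.60, and Emx2, 0.41, for pre-granulosa-like over epithelial-like cells, and Gata4, 0.28, for Sertoli-like over pre-granulosa-like cells), none was lost, and the genes called for epithelial-like over stromal-like cells went from 1942 higher and 2269 lower to 3449 and 3506. Without lot 29 the genes called lower for Sertoli-like cells went from 3110 to 1767, without lot 26 to 1860 and without lot 30 to 2062, and those called for epithelial-like over stromal-like to 1239 higher without lot 26 and to 1046 higher and 1481 lower without lot 30. Relative log expression factors gave 2431 genes higher and 2602 lower for Sertoli-like cells and DESeq2 2792 and 2713, against 2129 and 3110; the factors called in that comparison kept their direction. Of 672 recomputed levels 40 moved by more than the SD of the lots, 20 of them on removing called doublets, and of 728 shares 123, 52 of them with cells not thinned and 43 with cells thinned to 2000 UMIs. Clusters 2, 3 and 12 were left out in refits added after the data were seen. Depth limits Six4 most, with 10 UMIs in all Sertoli-like cells.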
